A study of Mus musculus with 10 samples.

Results

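The transcripts of T cells and natural killer (NK) cells were examined in subcutaneous lung tumors of obese mice through 42 genes, chosen by symbol, out of 55401 gene identifiers counted. All 42 symbols were found. They comprised 7 genes of the T cell receptor complex, 3 coreceptor genes, 7 signaling genes, 6 genes of costimulation and adhesion, 6 of memory and homing, 2 of regulatory T cells, 5 of cytotoxicity, 4 NK receptors and 2 T-box factors. RNA came from 10 tumors of male C57BL/6J mice with diet-induced obesity (chow with 60% of calories from fat), 7 to 17 weeks old when 75000 KPN1.1 cells were injected into the flank. KPN1.1 is a single mouse lung adenocarcinoma line with the NINJA cassette, an inducible neoantigen, and it was used in all mice. Once a tumor was palpable, 5 mice received liraglutide, an agonist of the GLP-1 receptor, at 0.2 μg/g body weight by daily intraperitoneal injection, and 5 received the PBS vehicle, and tumors were taken on days 19 to 22. A frozen fragment of each tumor was used, so the RNA held cancer cells and host cells together, and a difference in the number of T or NK cells and a difference in RNA per cell cannot be told apart.

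T cells recognize antigen through a receptor of alpha and beta chains that signals through the CD3 chains, helped by the coreceptors CD4 or CD8. The kinases LCK and ZAP70 and the adaptor LAT carry the signal inward. CD8 T cells and NK cells kill target cells with perforin and granzymes, and CD4 T cells that express FOXP3 restrain such responses. In tumors, these lymphocytes are usually a minority among cancer cells, macrophages and stroma.

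Each tumor had between 9927942 and 14480593 counts, and 3 counts, taken as the smallest detectable amount, corresponded to between 0.207 and 0.315 CPM, a floor that covers counting error alone. CPM are counts relative to a library's total on a common scale, here with library sizes corrected by the TMM method. Over the 42 genes together, between 573 and 1678 counts were obtained per tumor. Of the 42 genes, 8 had fewer than 10 counts in most tumors, namely Cd28, Icos, Cxcr3, Sh2d1a, Gzmk, Klrb1c, Ncr1 and Tbx21. The same 8 were removed by the filterByExpr step of edgeR, which keeps genes with enough counts, and the other 34 were tested among 17464 genes. Per kilobase of exon, the highest mean levels over the 10 tumors belonged to Trbc1 (4.65 CPM per kb), Tcf7 (3.19), Gzmb (2.94), Trbc2 (2.78), Cxcr6 (2.68) and Trac (2.57). The lowest belonged to Sh2d1a (0.0276 CPM per kb), Cd28 (0.0764), Ubash3a (0.0798) and Lef1 (0.0860).

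T and NK cell transcripts varied widely between tumors of the same treatment. The summed level of the 42 genes was 62.7, 58.1, 61.2, 95.6 and 117 CPM in vehicle tumors 1 to 5. It was 64.3, 96.0, 127, 112 and 113 CPM in liraglutide tumors 1 to 5. Vehicle tumors 1 to 3 and liraglutide tumor 1 were low, and the ranges of the groups overlapped. The group means, 79.0 ± 26.3 and 103 ± 24.1 CPM (SD, n = 5 each), differed by less than either SD. Liraglutide tumor 3 had the highest level of 14 genes, whereas vehicle tumor 1 had the lowest level of 17 and vehicle tumor 2 of 11, ties included. Vehicle tumors 4 and 5 had the highest level of 7 genes each and liraglutide tumors 4 and 5 of 5 each. The highest tumor exceeded the lowest by more than 5-fold in 26 genes, and 5 genes had no count in at least 1 tumor. In 21 genes the variation within groups was over 5 times that of counting alone, as chi-square per degree of freedom, and it was largest for Tcf7 (40.8), Cd8a (29.5) and Gzmb (22.2). It was under 2 times that of counting for Cd5 (1.17), Foxp3 (1.28), Cd27 (1.31) and Sh2d1a (1.39).

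**Figure D1:**
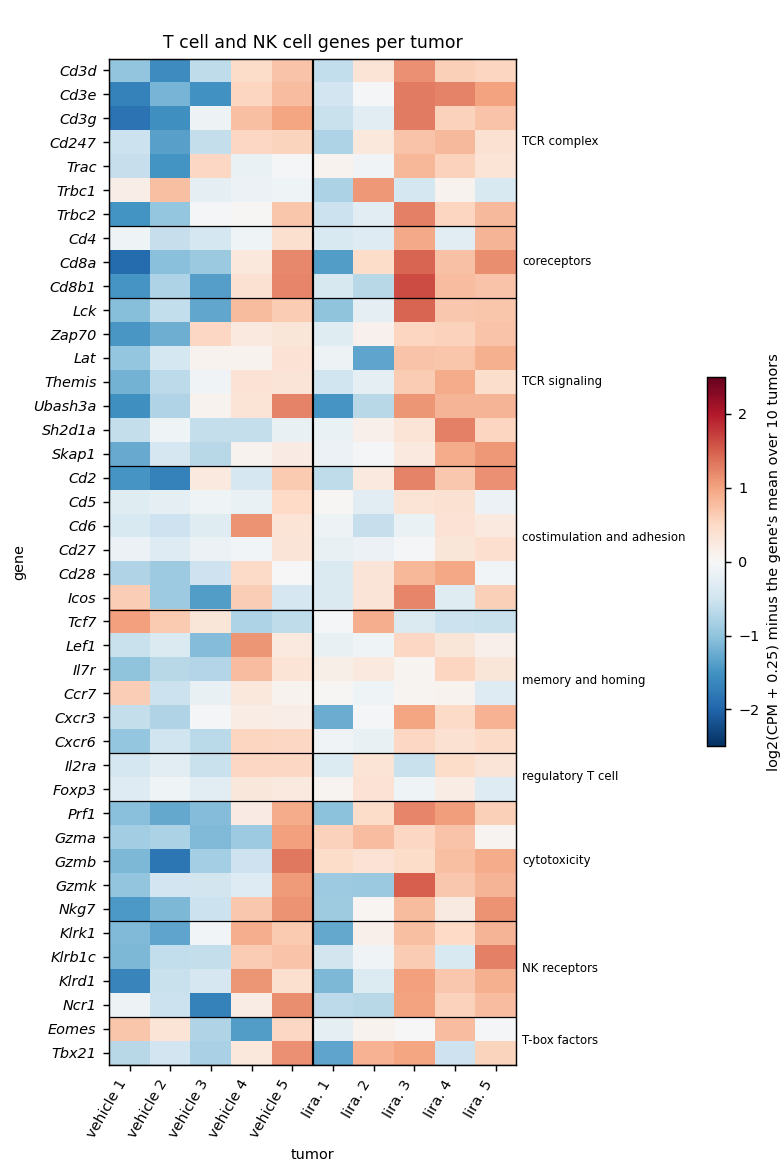
Heat map of the 42 T cell and NK cell genes (rows, by role) in the 10 tumors (columns, vehicle left, liraglutide right of the line). Color is log2(CPM + 0.25) minus the gene's mean over the 10 tumors, from -2.5 (blue) to 2.5 (red). Most genes are blue in vehicle tumors 1 to 3 and liraglutide tumor 1. Most are red in liraglutide tumors 3 to 5 and vehicle tumors 4 and 5, while Tcf7 is red in vehicle tumors 1 to 3 and liraglutide tumor 2.

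The first question was whether liraglutide-treated and vehicle-treated tumors differed in these genes. None of the 34 genes tested had an adjusted p under 0.05 with edgeR's quasi-likelihood test, as for all 17464 genes (0.0%), and the smallest adjusted p among them was 0.511. DESeq2 gave none of the 34 an adjusted p, because its independent filtering removed 33 and its check for outlying counts removed Gzmb. With that filtering off, it called 0 of the 33 it could adjust, with a smallest adjusted p of 0.412 (DESeq2), and 40 of all 17464 genes. With edgeR, at an unadjusted p under 0.05, 1 of the 34 was higher with liraglutide (3.97% of all genes tested were) and 0 were lower (5.62% of all genes tested were). In 0 of the 34 were the CPM of the groups without overlap, against 1.49% of all genes tested. By sign alone, 30 of the 34 log2 fold changes were positive, and their median was 0.48, beside 47.41% positive and a median of -0.02 over all genes tested. When every gene with a count was fitted, 38 of the 42 were positive (median 0.55), the exceptions being Tcf7, Cd6, Ccr7 and Trbc1. When 10 counts were required in every tumor, 11 of the 42 were fitted, of which 8 were positive, and the median was 0.16. These genes vary together across tumors, so their shared sign is not that many separate observations. Single tumors moved the values. Without vehicle tumor 5 the median was 0.78 and 9 genes were higher at an unadjusted p under 0.05 (1086 of the 17793 genes tested in that fit were), and the median was 0.27 without liraglutide tumor 3 and 0.31 without vehicle tumor 2.

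**Figure D2:**
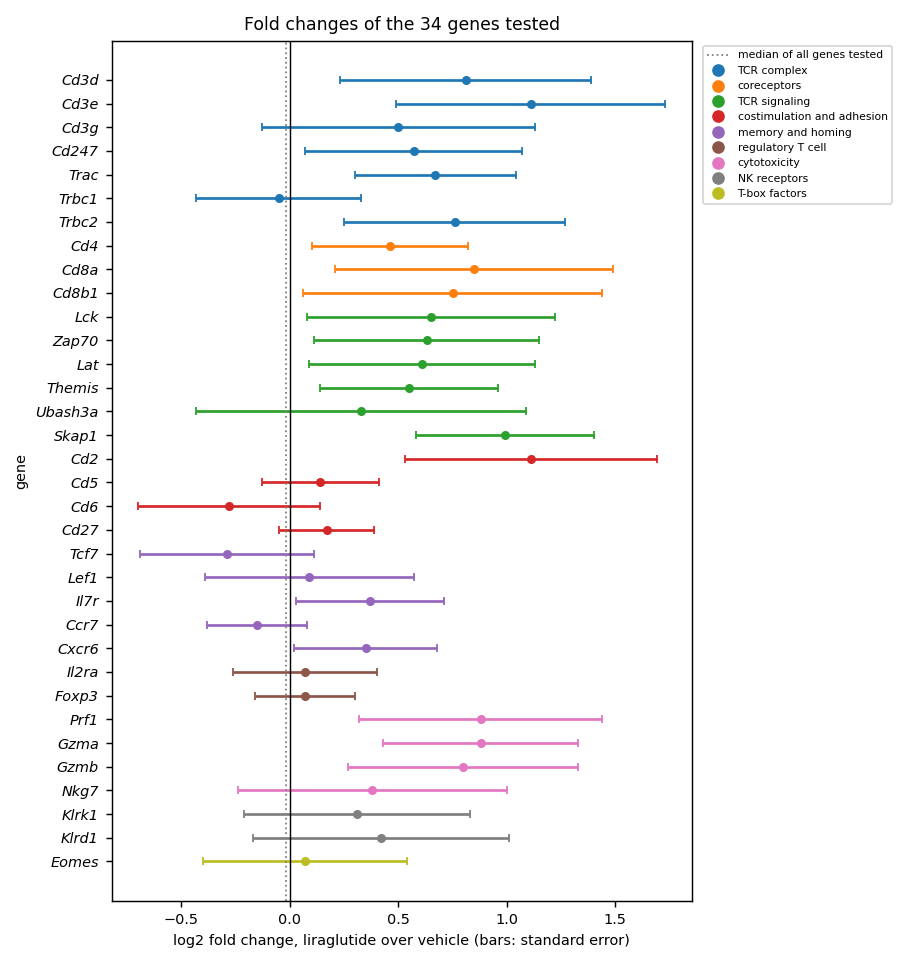
Log2 fold change, liraglutide over vehicle, of the 34 genes tested (points, colored by role) with its standard error (bars), from edgeR. The dotted line is the median over all genes tested, -0.02, and 30 of the 34 points lie right of 0, with Cd3e and Cd2 at 1.11 and Tcf7 at -0.29.

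The CD3 chains, which couple the T cell receptor to its signaling kinases, were low in the vehicle tumors 1 and 2 and high in liraglutide tumor 3. Cd3e was at 0.345, 0.608, 0.420, 2.51 and 3.01 CPM in vehicle tumors 1 to 5 and at 1.12, 1.63, 4.47, 4.25 and 3.57 CPM in liraglutide tumors 1 to 5. Of the liraglutide tumors, 3 exceeded all vehicle tumors, and the other two lay between the lower and the upper vehicle tumors. The means were 1.38 ± 1.28 and 3.01 ± 1.54 CPM (SD, n = 5 each), with a log2 fold change of 1.11 (standard error, SE, 0.62, unadjusted p = 0.101 and adjusted p = 0.582 from edgeR). Cd3d, Cd3g and Cd247 (the zeta chain) had log2 fold changes of 0.81, 0.50 and 0.57. Summed over the 4 chains, the vehicle tumors ranged from 1.32 to 9.45 CPM and the liraglutide tumors from 3.02 to 12.6 CPM. Cd247 shares 3007 of its 5887 exon bases with Pou2f1 on the opposite strand, and Pou2f1 had 713 to 1198 counts per tumor. The strand setting of the counting is not given in the sources used here, so the reads of this pair may not be separated.

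Cd3d, Cd3e and Cd3g are neighbors on chromosome 9, with the start sites of Cd3d and Cd3g 1355 bases apart and those of Cd3d and Cd3e 27825 bases apart (RefSeq, GRCm38.p6). Their promoters are shown because these 3 genes had low and high levels in much the same tumors. Each spans 250 bases before to 50 after the start site, 5′ to 3′ on the gene's strand. Capitals mark AGGAAG or its reverse complement CTTCCT, a core that ETS factors can bind, and TGTGGT or ACCACA, a core that RUNX factors can bind. They lie at chr9:45009562-45009861 (minus strand) for Cd3e, chr9:44981536-44981835 (plus strand) for Cd3d and chr9:44980382-44980681 (minus strand) for Cd3g.
Cd3e: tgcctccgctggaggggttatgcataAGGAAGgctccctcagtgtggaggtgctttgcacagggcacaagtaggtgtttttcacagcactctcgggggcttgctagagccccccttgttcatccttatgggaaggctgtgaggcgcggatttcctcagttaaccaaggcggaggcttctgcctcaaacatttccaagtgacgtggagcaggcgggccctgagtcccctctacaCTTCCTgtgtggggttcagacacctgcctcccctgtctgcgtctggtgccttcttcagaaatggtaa
Cd3d: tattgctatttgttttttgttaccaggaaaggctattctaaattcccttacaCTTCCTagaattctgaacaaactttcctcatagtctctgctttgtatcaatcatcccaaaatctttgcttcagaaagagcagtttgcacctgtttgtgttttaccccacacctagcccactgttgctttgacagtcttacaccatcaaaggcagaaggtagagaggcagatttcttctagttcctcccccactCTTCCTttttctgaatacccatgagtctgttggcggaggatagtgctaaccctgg
Cd3g: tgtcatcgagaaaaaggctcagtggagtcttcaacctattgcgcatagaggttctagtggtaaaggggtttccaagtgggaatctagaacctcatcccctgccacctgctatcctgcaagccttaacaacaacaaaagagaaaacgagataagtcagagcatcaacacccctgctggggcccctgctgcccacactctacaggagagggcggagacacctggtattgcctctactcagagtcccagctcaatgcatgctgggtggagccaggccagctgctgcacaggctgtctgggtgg
The ETS core was present in 2 places each in the Cd3e and Cd3d windows and in 0 in that of Cd3g, and the RUNX core in none of the 3. A promoter entry matched 29 of the 42 genes, of which 14 held the ETS core and 12 the RUNX core. Among all 32851 promoter windows, 35.4% held the former and 16.8% the latter. Both cores were thus more frequent among the 29 genes, and that difference was not tested. Such short matches describe letters only.

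The alpha chain constant gene Trac was at 1.38, 0.608, 3.26, 1.93 and 2.12 CPM in vehicle tumors 1 to 5. It was at 2.33, 2.04, 4.09, 3.40 and 2.83 CPM in liraglutide tumors 1 to 5, with 2 of them above all vehicle tumors. Its log2 fold change was 0.67 (SE 0.37, unadjusted p = 0.0983, adjusted p = 0.580, edgeR). The beta chain constant genes, of which a T cell uses one or the other, took different courses. Trbc2 went with Cd3e, from 0.415 CPM in vehicle tumor 1 to 4.25 CPM in liraglutide tumor 3 (log2 fold change 0.76, SE 0.51). Trbc1 was highest in liraglutide tumor 2 (7.02 CPM) and vehicle tumor 2 (5.47 CPM), was between 1.73 and 3.59 CPM elsewhere, and had a log2 fold change of -0.05 (SE 0.38).

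The first 259 bases of the Trbc1 and Trbc2 transcripts are identical, and over 692 aligned bases they share 80.2%, with 137 differences. Read pairs that lie wholly within the identical stretch cannot be assigned to either gene, and their number was not measured. How such pairs were counted is not given in the sources used here, so the level of each gene is uncertain. Bases 241 to 440 of the GENCODE M39 transcripts Trbc1-201 and Trbc2-201 are shown as the place where they begin to differ, with the 9 differing bases in capitals.
Trbc1: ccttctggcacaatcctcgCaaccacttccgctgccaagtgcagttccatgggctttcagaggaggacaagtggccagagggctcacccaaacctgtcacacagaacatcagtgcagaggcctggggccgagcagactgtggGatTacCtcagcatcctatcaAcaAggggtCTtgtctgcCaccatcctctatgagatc
Trbc2: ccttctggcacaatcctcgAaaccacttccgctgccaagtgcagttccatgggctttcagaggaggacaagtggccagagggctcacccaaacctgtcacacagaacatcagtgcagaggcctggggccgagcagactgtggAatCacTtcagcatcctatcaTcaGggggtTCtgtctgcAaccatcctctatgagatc

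Counts on single receptor segments were few, with the exception of Trdv4. All Trbv segments together had 11 to 30 counts per vehicle tumor and 11 to 36 per liraglutide tumor, spread over 4 to 16 segments. The Trav segments had 1 to 11 counts in vehicle and 2 to 13 in liraglutide tumors. The 60 Traj segments had 35 to 65 and 28 to 100 counts. Trgv segments had 0 to 8 and 1 to 13 counts. Trdv4 held all 255 counts of the Trdv segments, with 8 to 62 in vehicle and 2 to 30 in liraglutide tumors. Its log2 fold change was -1.14 (SE 0.69), and which cells held it was not tested. No single Trbv segment held most of the counts, and the leading one, Trbv15, held 21.9% of 210 over all tumors. Depth at this level did not allow a comparison of receptor diversity between treatments.

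Of the coreceptors, CD8, found on cytotoxic T cells, varied widely, and CD4, found on helper and regulatory T cells, less so. Cd8a was at 0.760, 1.62, 1.79, 4.35 and 8.63 CPM in vehicle tumors 1 to 5, and at 1.21, 5.06, 10.2, 6.14 and 8.41 CPM in liraglutide tumors 1 to 5. The high tumors of both groups reached similar levels, with 1 liraglutide tumor above all vehicle tumors. Its log2 fold change was 0.85 (SE 0.64, adjusted p = 0.667, edgeR), and that of Cd8b1, its partner chain, was 0.75 (SE 0.69). The value for Cd8a was 1.55 without vehicle tumor 5 and 0.59 without vehicle tumor 1. Cd4 was at 1.93, 1.32, 1.47, 1.93 and 2.85 CPM in vehicle tumors 1 to 5 and at 1.56, 1.63, 4.25, 1.70 and 3.95 CPM in liraglutide tumors 1 to 5. Liraglutide tumors 3 and 5 stood above the rest, and the other 3 were within the vehicle range. The log2 fold change of Cd4 was 0.46 (SE 0.36, adjusted p = 0.679, edgeR), and it was 0.22 without liraglutide tumor 3 and 0.27 without liraglutide tumor 5.

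**Figure D3:**
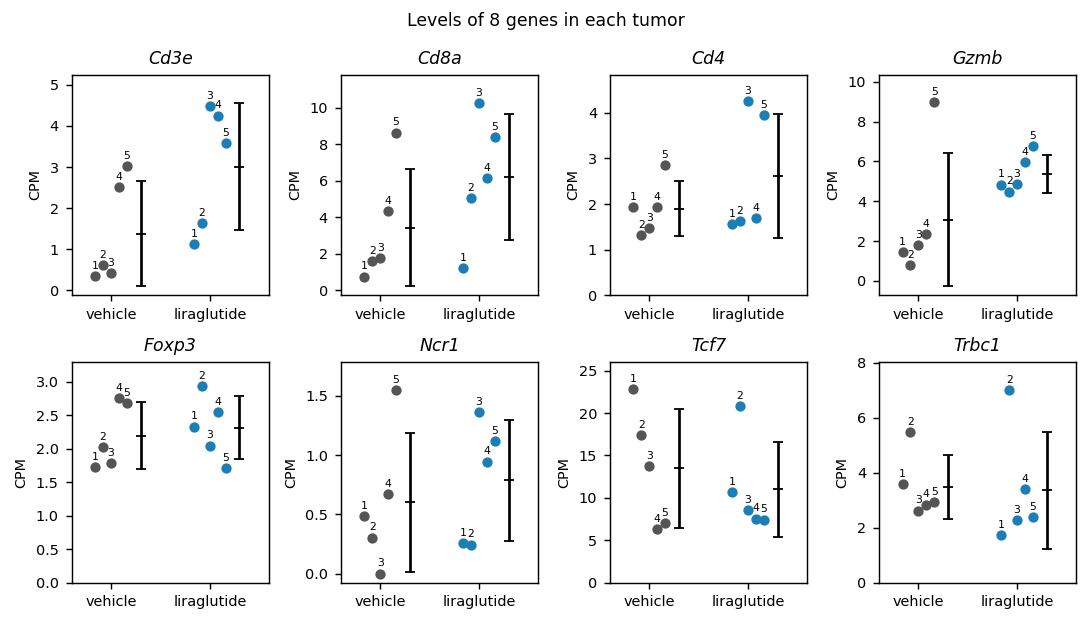
CPM of Cd3e, Cd8a, Cd4, Gzmb, Foxp3, Ncr1, Tcf7 and Trbc1 in each tumor (points, labelled with the tumor number) by treatment, with the mean and SD of 5 tumors beside each group. Cd3e and Cd8a spread from under 1 CPM to 4.47 and 10.2 CPM, Foxp3 stays between 1.71 and 2.94 CPM, and Tcf7 is highest in vehicle tumors 1 and 2 and liraglutide tumor 2.

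Among the signaling genes, all 6 tested had positive log2 fold changes, from 0.33 for Ubash3a, which restrains receptor signaling, to 0.99 for Skap1, an adaptor that links the receptor to integrins. Skap1 was the gene with an unadjusted p under 0.05. It was at 0.345, 0.811, 0.630, 1.26 and 1.39 CPM in vehicle tumors 1 to 5 and at 1.04, 1.14, 1.44, 2.46 and 2.75 CPM in liraglutide tumors 1 to 5. Of the liraglutide tumors, 3 exceeded all vehicle tumors and none was under 1 CPM. Its standard error was 0.41, its unadjusted p 0.0356 and its adjusted p 0.511 (edgeR's quasi-likelihood test), so it did not pass. The kinase genes Lck and Zap70 and the adaptor gene Lat had log2 fold changes of 0.65, 0.63 and 0.61, with standard errors of 0.57, 0.52 and 0.52. Themis, a regulator of receptor signal strength, was at 0.55 (SE 0.41). Sh2d1a, which encodes the adaptor SAP, had 0, 1, 0, 0 and 1 counts in vehicle tumors 1 to 5 and 1, 2, 3, 7 and 4 counts in liraglutide tumors 1 to 5. When all genes with a count were fitted, its unadjusted p was 0.0105 and its adjusted p 0.620 (edgeR), and 1465 of its 5870 exon bases lie opposite Tenm1, which had 0 to 53 counts.

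Costimulation and adhesion genes held both some of the largest and some of the smallest fold changes. Cd2, an adhesion receptor of T and NK cells, was at 0.276, 0.203, 1.47, 0.837 and 2.04 CPM in vehicle tumors 1 to 5. It was at 0.691, 1.47, 3.18, 2.08 and 2.98 CPM in liraglutide tumors 1 to 5, with 3 of these above all vehicle tumors and a log2 fold change of 1.11 (SE 0.58, adjusted p = 0.560, edgeR). Cd6, a receptor that tunes T cell activation, was led by vehicle tumor 4 at 2.43 CPM. Its other vehicle tumors were at 0.691, 0.608, 0.735 and 1.30 CPM, the liraglutide tumors at 0.864, 0.571, 0.834, 1.32 and 1.19 CPM, and its log2 fold change was -0.28 (SE 0.42). The sign of Cd6 rested on that tumor, since it was 0.19 without it. Cd5 and Cd27, an inhibitory and a costimulatory receptor, were nearly level over the tumors, between 0.967 and 1.87 CPM and between 1.93 and 3.42 CPM, with log2 fold changes of 0.14 and 0.17. Cd28 had 1 to 12 counts per tumor and Icos 0 to 17, too few for the test.

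Tcf7 encodes TCF1, a factor of naive and memory T cells that is also made outside the T lineage, and its order of tumors differed from that of most of the other genes. It was at 22.8, 17.4, 13.8, 6.36 and 7.01 CPM in vehicle tumors 1 to 5 and at 10.7, 20.8, 8.57, 7.56 and 7.44 CPM in liraglutide tumors 1 to 5. The 3 tumors with the highest Tcf7, vehicle tumors 1 and 2 and liraglutide tumor 2, were also the 3 with the highest Trbc1, and the groups overlapped (log2 fold change -0.29, SE 0.40, adjusted p = 0.816, edgeR). It was -0.64 without liraglutide tumor 2 and -0.01 without vehicle tumor 1. Without Tcf7 the summed level of the remaining 41 genes ranged from 39.9 to 110 CPM in vehicle and from 53.6 to 119 CPM in liraglutide tumors. Lef1, a related factor, had 2 to 22 counts per tumor and a log2 fold change of 0.09 (SE 0.48). Liraglutide tumor 2, the one with high Tcf7 and Trbc1 in its group, also had the highest summed level of 4 keratinocyte markers, 200.5 CPM, and the part of this in its values was not tested.

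Il7r, the receptor for the survival cytokine IL-7, was between 2.49 and 9.20 CPM in vehicle tumors and between 5.54 and 7.75 CPM in liraglutide tumors (log2 fold change 0.37). Ccr7, which guides cells to lymph nodes, was at 6.56, 2.84, 3.68, 5.10 and 4.48 CPM in vehicle tumors 1 to 5 and at 4.32, 3.92, 4.47, 4.54 and 3.35 CPM in liraglutide tumors 1 to 5. All liraglutide values lay within the vehicle range (log2 fold change -0.15, SE 0.23). Cxcr6, a chemokine receptor of tissue T cells, was at 2.35, 3.35, 2.94, 7.11 and 7.01 CPM in vehicle tumors 1 to 5 and at 4.58, 4.24, 7.05, 6.42 and 6.85 CPM in liraglutide tumors 1 to 5. The vehicle tumors fell into a low and a high set that enclosed the liraglutide tumors (log2 fold change 0.35, SE 0.33, adjusted p = 0.726, edgeR). Leaving out vehicle tumor 1 gave 0.18 and leaving out vehicle tumor 4 gave 0.58. Cxcr3, the receptor for CXCL9 and CXCL10, had 0 to 12 counts and was not tested. It was at 0.138, 0.101, 0.315, 0.418 and 0.407 CPM with vehicle and at 0, 0.327, 0.910, 0.567 and 0.819 CPM with liraglutide. Its ligand Cxcl9, induced by interferon-gamma, was far more abundant, at 21.4, 43.0, 63.5, 173 and 266 CPM in vehicle tumors 1 to 5 and at 92.9, 135, 201, 271 and 302 CPM in liraglutide tumors 1 to 5 (log2 fold change 0.82, SE 0.60, adjusted p = 0.660, edgeR).

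Foxp3, the defining factor of regulatory T cells, was among the genes that differed least between tumors. It was at 1.73, 2.03, 1.79, 2.76 and 2.69 CPM in vehicle tumors 1 to 5 and at 2.33, 2.94, 2.05, 2.55 and 1.71 CPM in liraglutide tumors 1 to 5. Its spread was close to that of counting, and liraglutide tumors 3 and 5, high in Cd3e, were among the lower ones. The means were 2.20 ± 0.495 and 2.32 ± 0.469 CPM (SD, n = 5 each), with a log2 fold change of 0.07 (SE 0.23, adjusted p = 0.930, edgeR). Foxp3 shares 853 of 4577 exon bases with Flicr on the same strand, which had 7 to 37 counts, so some reads may belong to either. Il2ra, the IL-2 receptor alpha chain (CD25), was at 1.52, 1.72, 1.37, 3.18 and 3.18 CPM with vehicle and at 1.64, 2.78, 1.37, 3.02 and 2.75 CPM with liraglutide. Levels near 3 CPM occurred in both groups (log2 fold change 0.07, SE 0.33).

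The cytotoxicity genes had the highest median log2 fold change of the roles with more than 3 genes tested, 0.84 over the 4 granule genes tested. Gzmb, the gene of granzyme B, was at 1.45, 0.811, 1.79, 2.34 and 8.96 CPM in vehicle tumors 1 to 5 and at 4.84, 4.49, 4.85, 5.95 and 6.77 CPM in liraglutide tumors 1 to 5. All 5 liraglutide tumors lay above 4 of the vehicle tumors and below vehicle tumor 5. The log2 fold change was 0.80 (SE 0.53, unadjusted p = 0.160, adjusted p = 0.627, edgeR), and it was 1.75 without vehicle tumor 5. Gzma, a second granzyme, had the same order of groups, with vehicle tumors 1 to 4 between 0.840 and 1.12 CPM, vehicle tumor 5 at 4.56 CPM and liraglutide tumors between 2.23 and 3.76 CPM (log2 fold change 0.88, SE 0.45, unadjusted p = 0.0767, adjusted p = 0.560, edgeR). Prf1, which encodes perforin, was at 0.760, 0.608, 0.735, 2.18 and 3.75 CPM in vehicle tumors 1 to 5 and at 0.778, 2.61, 4.63, 4.06 and 2.90 CPM in liraglutide tumors 1 to 5. In Prf1, unlike Gzma and Gzmb, liraglutide tumor 1 was close to vehicle tumors 1 to 3 (log2 fold change 0.88, SE 0.56, and 1.47 without vehicle tumor 5). Nkg7, a granule protein gene, was at 0.276, 0.406, 0.735, 2.01 and 2.85 CPM with vehicle and at 0.518, 1.22, 2.20, 1.42 and 2.83 CPM with liraglutide (log2 fold change 0.38, SE 0.62). With 1 tumor left out, this ranged from 0.10 without liraglutide tumor 5 to 0.94 without vehicle tumor 5. Gzmk had 1 to 20 counts and was not tested.

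The promoter window of Gzmb is shown because Gzmb had the highest level per kilobase of the 5 cytotoxicity genes among the 42. Gzme, a granzyme gene outside the 42 that was named after its values were seen, was higher, at 44.5 CPM per kb and between 14.1 and 59.4 CPM per tumor. The Gzmb window spans chr14:56262285-56262584 (minus strand, GRCm38.p6, RefSeq), with the same marking as above.
Gzmb: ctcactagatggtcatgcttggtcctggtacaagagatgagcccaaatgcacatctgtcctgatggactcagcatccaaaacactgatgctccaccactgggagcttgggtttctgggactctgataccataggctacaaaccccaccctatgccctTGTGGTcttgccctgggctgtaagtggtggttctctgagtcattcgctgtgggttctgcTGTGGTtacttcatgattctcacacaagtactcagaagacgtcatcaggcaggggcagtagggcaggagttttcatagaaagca
It held the RUNX core in 2 places and the ETS core in 0.

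Of the 4 NK cell receptors among the 42 genes, Ncr1 and Klrb1c had fewer than 10 counts in 6 tumors each, and Klrk1 and Klrd1 had up to 67 and 47 counts. Ncr1, which encodes the activating receptor NKp46 and marks NK cells and related innate cells, was at 0.484, 0.304, 0, 0.669 and 1.55 CPM in vehicle tumors 1 to 5 and at 0.259, 0.245, 1.37, 0.945 and 1.12 CPM in liraglutide tumors 1 to 5. Klrb1c (NK1.1) was at 0.0691, 0.203, 0.210, 0.837 and 0.896 CPM in vehicle tumors 1 to 5 and at 0.259, 0.408, 0.834, 0.283 and 1.41 CPM in liraglutide tumors 1 to 5. Both were highest in tumors with high Cd3e, both had at most 19 counts in any tumor, and neither was tested. Klrk1 (NKG2D) and Klrd1 (CD94), shared by NK and CD8 T cells, had log2 fold changes of 0.31 (SE 0.52) and 0.42 (SE 0.59). Of the T-box factors that direct these cells, Eomes was between 0.251 and 1.98 CPM (log2 fold change 0.07) and Tbx21 had 0 to 14 counts.

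The second question was whether the makeup of the lymphocyte transcripts differed, which was examined with 8 ratios of gene levels per tumor, compared by two-sided exact permutation tests with adjustment over the 8. None passed an adjusted p of 0.05, and 5 against 5 tumors cannot give an unadjusted p under 0.00794. Adjusted over the 8, a single ratio at that p would stand at 0.0635, so no ratio could pass alone, and with tumor number as a block the smallest p is 0.0625. Cd3e over Ptprc, the latter coding for the leukocyte protein CD45, was at log2 values of -6.12, -5.36, -6.13, -4.85 and -4.47 in vehicle tumors 1 to 5 and of -4.86, -4.56, -3.93, -4.08 and -4.25 in liraglutide tumors 1 to 5. The liraglutide tumors were all above the vehicle median and 3 of them above every vehicle tumor, with a mean difference of 1.05 (exact permutation p = 0.0397, adjusted p = 0.318). Foxp3 over Cd3e was at log2 values of 1.88, 1.50, 1.73, 0.13 and -0.16 in vehicle tumors 1 to 5 and of 0.95, 0.79, -1.07, -0.70 and -0.99 in liraglutide tumors 1 to 5. All 5 liraglutide tumors lay below the vehicle median, and the groups overlapped (mean difference -1.22, exact permutation p = 0.0952, adjusted p = 0.381). Against Cd4 instead, Foxp3 differed by -0.27 between the groups (exact permutation p = 0.532, adjusted p = 0.770). The difference was 0.75 for Cd8a over Ptprc and 0.65 for Cd8a over Cd4, with exact permutation p of 0.191 and 0.317. With 1 tumor left out, these ranged from 0.48 to 1.08 and from 0.26 to 1.00, the lowest without vehicle tumor 1 and the highest without liraglutide tumor 1. For Cd4 over Ptprc, Ncr1 over Ptprc and Gzmb over Cd8a it was 0.09, 0.23 and 0.23, each smaller than the SD within groups. With a prior count of 0.5 in place of 2, it was 0.55 for Ncr1 over Ptprc (exact permutation, adjusted p = 0.754).

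**Figure D4:**
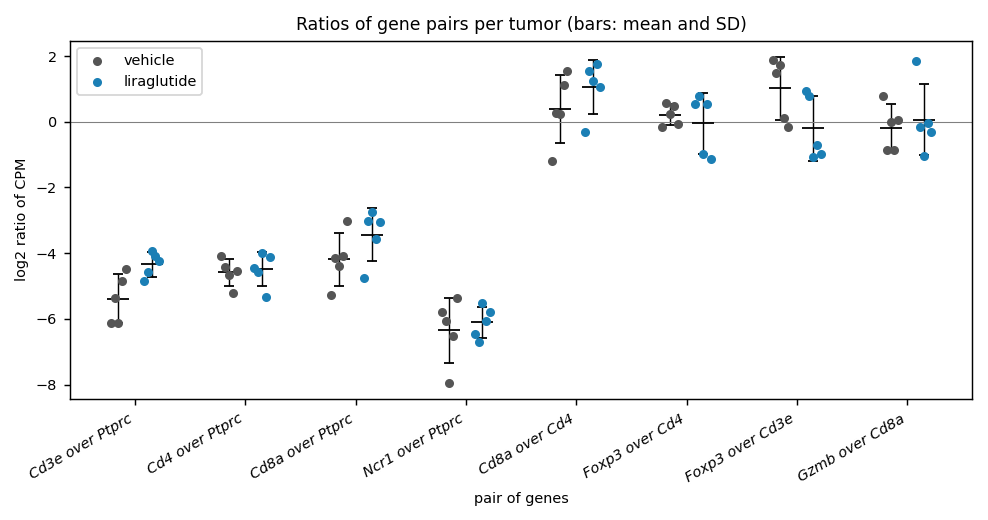
Log2 ratio of CPM for 8 pairs of genes in each tumor (points, vehicle grey, liraglutide blue), with the mean and SD of 5 tumors (black). Cd3e over Ptprc is higher by 1.05 and Foxp3 over Cd3e lower by 1.22 in the liraglutide mean, with overlap of the groups in all 8 pairs.

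Ptprc itself was at 35.6, 31.7, 41.0, 77.0 and 70.5 CPM in vehicle tumors 1 to 5 and at 37.2, 42.4, 70.5, 74.8 and 71.0 CPM in liraglutide tumors 1 to 5. No tumor lay between 42.4 and 70.5 CPM, and the 5 tumors below that gap, 3 vehicle and 2 liraglutide, were the 5 with the lowest Cd3e. Because the tumors form separate sets in Ptprc with 5 in each, under the 6 taken here as the least for a correlation, no correlation of Cd3e with Ptprc is given. For 5 other pairs, log2 CPM was correlated over the 10 tumors, with permutation p adjusted over the 6 relations computed, and whether these relations hold within the sets that Ptprc forms was not tested. Cd3e and Ncr1 had Pearson's r = 0.794 (permutation p = 0.00676, adjusted p = 0.0203) and Spearman's rho = 0.746 (permutation p = 0.0173, adjusted p = 0.0263), with r = 0.744 without vehicle tumors 3 and 5. Cd8a and Gzmb had r = 0.729 (permutation p = 0.0182, adjusted p = 0.0336) and rho = 0.782 (permutation p = 0.0104, adjusted p = 0.0263), with r = 0.572 without vehicle tumors 1 and 2. Cxcr3 and Cxcl9 had r = 0.708 (permutation p = 0.0224, adjusted p = 0.0336) and rho = 0.818 (permutation p = 0.00569, adjusted p = 0.0263), with r = 0.661 without vehicle tumors 1 and 2. Their adjusted p was 0.0762 with a smaller prior count, and the counts of Cxcr3 were sparse. For Cd3e with Foxp3, r was 0.433 and rho 0.273 (permutation p = 0.206 and 0.448, adjusted p = 0.206 and 0.448), with r = 0.743 without liraglutide tumors 2 and 5. For Cd3e with the macrophage gene Adgre1, r was 0.514 and rho 0.564 (permutation p = 0.129 and 0.0967, adjusted p = 0.155 and 0.116), with r = 0.473 without liraglutide tumors 2 and 3.

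**Figure D5:**
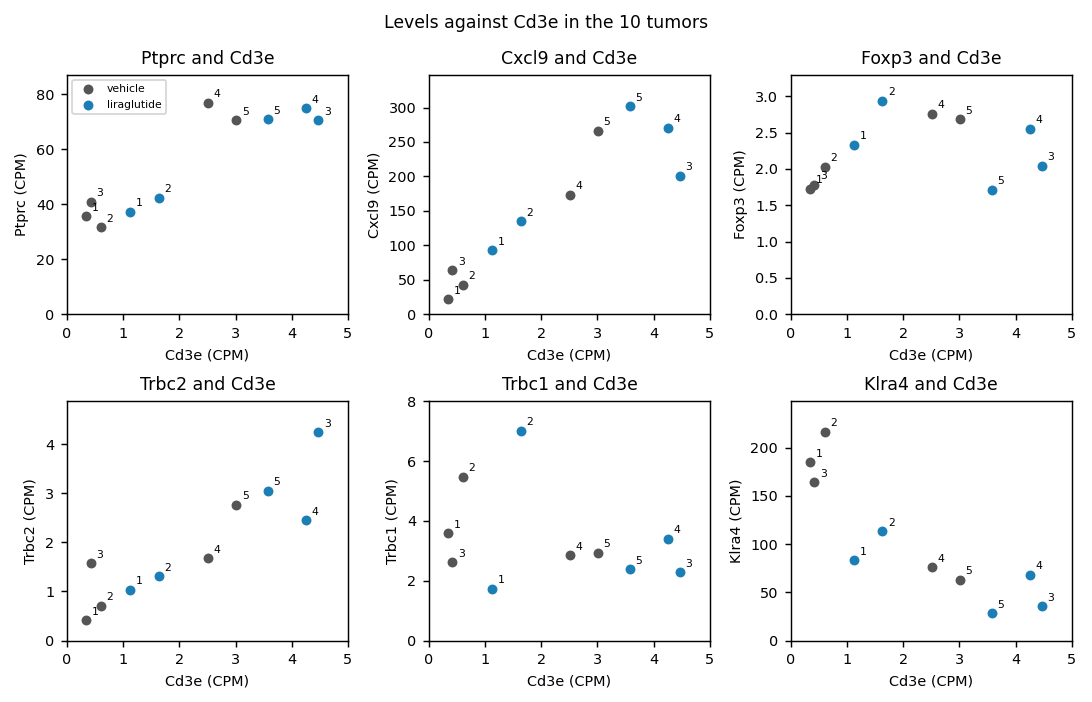
CPM of Ptprc, Cxcl9, Foxp3, Trbc2, Trbc1 and Klra4 (vertical axes) against CPM of Cd3e (horizontal axes) in the 10 tumors (points, labelled with the tumor number, vehicle grey, liraglutide blue). Ptprc falls into 5 tumors up to 42.4 CPM and 5 from 70.5 CPM, Foxp3 stays under 3 CPM throughout, and Klra4 is highest, up to 216 CPM, in the 3 tumors with the lowest Cd3e.

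Beyond the 42 genes, 70 other T and NK cell genes were listed, of which 47 were tested. None had an adjusted p under 0.05. At an unadjusted p under 0.05, 3 of the 47 were higher and 1 was lower with liraglutide, beside 3.97% and 5.62% of all genes tested. Of the 47 log2 fold changes 31 were positive (median 0.27), beside 47.41% over all genes tested. Nfatc2, a calcium-dependent factor of T cell activation, was at 10.4, 11.2, 13.8, 33.0 and 15.8 CPM in vehicle tumors 1 to 5 and at 35.7, 20.2, 51.9, 33.4 and 40.2 CPM in liraglutide tumors 1 to 5 (log2 fold change 1.11, SE 0.34, unadjusted p = 0.00680, adjusted p = 0.482, edgeR). Gata3, a factor of type 2 helper and innate lymphoid cells, was at 2.21, 1.83, 1.47, 3.68 and 2.20 CPM with vehicle and at 2.94, 3.76, 3.94, 5.86 and 4.32 CPM with liraglutide (log2 fold change 0.86, unadjusted p = 0.00934, adjusted p = 0.482, edgeR). Per kilobase Nfatc2 was at 2.48 CPM over the 10 tumors, against 0.538 CPM per kb for Cd3e. Which cells held the Nfatc2 and Gata3 transcripts was not tested. In both genes 4 of 5 liraglutide tumors exceeded all vehicle tumors. Il2rg, the shared chain of several cytokine receptors, had the same count of 4 tumors, at 2.76, 1.22, 3.36, 4.27 and 3.50 CPM in vehicle tumors 1 to 5 and at 4.49, 2.86, 7.13, 8.03 and 5.73 CPM in liraglutide tumors 1 to 5 (log2 fold change 0.89, unadjusted p = 0.0247, adjusted p = 0.499, edgeR).

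The lower gene was Klra4, of the Ly49 family of NK receptors. It was at 185, 216, 164, 76.1 and 63.0 CPM in vehicle tumors 1 to 5 and at 83.4, 113, 35.3, 68.4 and 28.3 CPM in liraglutide tumors 1 to 5 (log2 fold change -1.10, SE 0.43, unadjusted p = 0.0269, adjusted p = 0.499, edgeR). It was thus highest in the 3 tumors with the least Cd3e, and per kilobase it was at 68.6 CPM, against 0.444 CPM per kb for Ncr1. The other listed Ly49 genes, Klra1, Klra3, Klra7, Klra8 and Klra9, were at 0.837 CPM or less in all tumors. Klrc1, of the NKG2 family and named after its values were seen, had a like order, from 78.2 CPM in vehicle tumor 2 to 6.52 CPM in liraglutide tumor 3 (log2 fold change -1.22, SE 0.67, unadjusted p = 0.0943, edgeR). Which cells held these transcripts was not tested.

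Markers of other cells were read in the same tumors. Pan-leukocyte markers summed to 89.4 to 176 CPM in vehicle and 102 to 168 CPM in liraglutide tumors, and dendritic cell markers to 22.8 to 70.3 and 37.3 to 59.6 CPM. B cell markers summed to at most 5.76 CPM in any tumor. The 7 macrophage markers, of which Adgre1 alone was correlated with Cd3e, summed to 423 to 966 CPM in vehicle and 442 to 600.5 CPM in liraglutide tumors. Of these 7, 6 had positive and 1 a negative log2 fold change (median 0.23). The 6 lymph node stroma markers summed to 3.14 to 6.28 CPM in vehicle and 2.83 to 6.05 CPM in liraglutide tumors. Of these, Cr2 had 11 to 49 counts per tumor, Fcer2a 9 to 29, Cxcl13 1 to 27, Ccl21a 1 to 11, Glycam1 0 to 2 and Madcam1 0 to 1. The 4 thymocyte markers summed to 0 to 0.837 CPM in vehicle and 0.0744 to 0.408 CPM in liraglutide tumors, with Rag2 at 0 to 9 counts, Dntt at 0 to 5, and Rag1 and Ptcra at 0 to 1 each. Of 4 keratinocyte markers, all had positive log2 fold changes and 3 an unadjusted p under 0.05 (Krt5, 0.0278, Krt14, 0.0160, and Krt1, 0.0224, edgeR), with sums of 8.36 to 17.6 CPM in vehicle tumors and of 6.65, 200.5, 6.82, 76.2 and 49.9 CPM in liraglutide tumors 1 to 5. The 3 skeletal muscle markers summed to 19.6 to 189.9 CPM in vehicle and 43.7 to 232.6 CPM in liraglutide tumors. Of 7 lung epithelial markers, 4 had positive and 3 negative log2 fold changes (median 0.27), from -0.33 for Krt19 to 1.28 for Sftpc. The one with an unadjusted p under 0.05 was Nkx2-1, a lineage factor of lung epithelium (0.0495, log2 fold change 0.99, adjusted p = 0.520, edgeR). The part of these cells in the levels of the T and NK cell genes was not tested.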

How the data were processed

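RNA of 10 tumors (5 vehicle, 5 liraglutide, groups and tumor numbers from the sample titles) was depleted of ribosomal RNA and sequenced as read pairs. The authors deposited raw read counts per gene, with no normalization. Per the study's methods they used Bowtie (1.0.1), TopHat (2.0.13) and featureCounts on the GRCm39 genome and filtered samples after quality assessment. The submitters' processing notes list mm10 and GRCh38 instead, so the build is unsettled and no gene coordinates of the counts are given. Annotation release, strand setting and multi-mapped reads are not given in the sources used here. Of 55401 versioned Ensembl identifiers, 51731 (93.38%, holding 98.31% of counts) matched GENCODE M39 without version, and only 35 had the same version, so exon lengths and overlaps may differ in detail. Promoter windows carry their own build, GRCm38.p6.

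The tests used edgeR 4.0.16 in R 4.3.3: filterByExpr kept 17464 genes, TMM scaled the libraries, and treatment alone was the factor of the quasi-likelihood F test, with Benjamini-Hochberg adjustment over all of them. The study used DESeq2, run here as an alternative (1.42.0) with its independent filtering on and, added after seeing the data, off. Other alternatives were limma-voom (limma 3.58.1), other scalings and filters, tumor number as a block, and each tumor left out. Ratios and correlations used log2 CPM with a prior count of 2. Correlations had 100000 permutations (SciPy 1.17.1). The p-values measure the spread between these tumors. On simulated counts for this comparison (17464 genes), edgeR recovered 49.5% of 93 genes changed by 1 and 87.6% of 97 changed by 2 on the log2 scale. These shares are for the 17464 genes as a whole. Recovery was not tested separately for the listed T and NK cell genes, many of which had few counts, so the shares do not give their recovery. Among the listed genes tested, the median SD of log2 CPM within groups was 0.78. Cd3e, with a log2 fold change of 1.11, had a standard error of 0.62. Totals were 9927942 to 14480593 counts per tumor.

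The genes and lists were chosen with earlier results of these data known. Values per tumor are given for Cd3e, Trac, Cd4, Cd8a, Foxp3, Il2ra, Tcf7, Cxcr3, Cxcr6, Gzmb, Prf1, Nkg7, Ncr1 and Klrb1c, for those of the 42 genes with an unadjusted p under 0.05, and for those with the 3 largest and 3 smallest log2 fold changes. Genes of the other lists with an unadjusted p under 0.05, Ptprc and Cxcl9 are also named. The flow cytometry was not analysed here.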

Additional observations from a re-analysis of the deposited data

Results flagged for a closer look

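Within each treatment, the highest and the lowest of the 5 tumors were compared with the rest for 52 sets of values, by the gap to the nearest tumor over the whole range (Dixon's ratio, critical value 0.71). Chance gives about 1 such tumor in 20 sets, and 2 were found. Gzmb in vehicle tumor 5 was at 8.96 CPM, with the next vehicle tumor at 2.34 CPM (ratio 0.812). Tcf7 in liraglutide tumor 2 was at 20.8 CPM, with the next liraglutide tumor at 10.7 CPM (ratio 0.756). Vehicle tumor 5 was also the tumor whose omission gave the highest log2 fold change in 8 of the 15 genes followed, which were Cd3e (1.62), Cd2 (1.62), Cd4 (0.66), Cd8a (1.55), Skap1 (1.22), Gzmb (1.75), Prf1 (1.47) and Nkg7 (0.94).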

How the results depend on the processing

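For the 15 genes followed by name, 262 log2 fold changes were recomputed under alternatives, and 9 of them, in 4 genes, changed sign. An adjusted p was to be had for 246 of them, and 0 were under 0.05. The count of the 42 genes at an adjusted p under 0.05 was 0 in every alternative that gave them one. DESeq2 gave one to 0 of the 34 genes fitted and to 10 of the 47 other T and NK cell genes, of which it called 0 (56 of all genes called). With independent filtering off, an alternative chosen after seeing the data, it called 0 of 33 and 0 of 47. The count of genes higher at an unadjusted p under 0.05, 1 as reported, was 5 with limma-voom (848 of all 17464 genes), 2 with every gene with a count (1166 of 35141), 0 when 10 counts were required in every tumor (742 of 14714, median log2 fold change of the remaining listed genes 0.16) and 0 to 9 with 1 tumor left out. It was 9 without vehicle tumor 5 (1086 of all 17793 genes), 2 without vehicle tumor 4 (1268 of 17816) or liraglutide tumor 1 (651 of 17859), and 0 without vehicle tumor 1 (474 of 17756) or 2 (447 of 17856) or liraglutide tumor 4 (577 of 17826) or 5 (391 of 17680). Of the other T and NK cell genes, 6 were higher with limma-voom and 2 to 11 with 1 tumor left out (11 without vehicle tumor 5, 7 without liraglutide tumor 1 and 6 without liraglutide tumor 2, for which 1038 of all 17744 genes were higher). In these, 2 were lower with DESeq2, with its filtering on or off (1048 of all 17464 genes), or with every gene with a count (1266 of 35141), and 0 to 4 with 1 tumor left out (4 without liraglutide tumor 2, with 1410 of all 17744 genes lower, and 3 without vehicle tumor 4, with 1436 of 17816, or vehicle tumor 5, with 1323 of 17793). The cause was not tested.

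Same-numbered tumors of the groups correlated at 0.354, 0.565, -0.0753, 0.0681 and 0.389 (mean 0.260, against -0.0682 for other-numbered tumors). Since 2 of these are not over 0.1, the numbers were not taken as pairs in the reported fit. That limit was a choice made here, and these values do not settle whether the tumors were paired. With the tumor number as a replicate block, 9 of the 34 genes tested and 7 of the other T and NK cell genes were higher and 2 of the latter lower at an unadjusted p under 0.05, with 0 at an adjusted p under 0.05, while 1309 of all 17464 genes were higher and 1276 lower.

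With 1 tumor left out, the log2 fold change ranged from -0.02 to 0.17 for Foxp3, from -0.05 to 0.24 for Il2ra, from -0.27 to 0.03 for Ccr7 and from -0.43 to 0.19 for Cd6, each crossing 0. The same held for the ratios of Cd4 over Ptprc (-0.06 to 0.30), Ncr1 over Ptprc (-0.17 to 0.47), Foxp3 over Cd4 (-0.48 to 0.00) and Gzmb over Cd8a (-0.22 to 0.51). With a prior count of 0.5, r of Cxcr3 with Cxcl9 was 0.626 (permutation, adjusted p = 0.0762). Cxcr3, Ncr1 and Klrb1c had too few counts for the test, and the variation within groups was 5.05 times that of counting in Ncr1 and 4.36 times in Klrb1c.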
